A study of Mus musculus with 6 samples.

Results

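The genes described here belong to the nuclear-encoded part of the mitochondrial respiratory chain and the ATP synthase, without covering all of it, and were measured in C2C12 myotubes after prolonged insulin exposure. They were taken from the array's annotation by symbol, as the genes of the Ndufa, Ndufb, Ndufc, Ndufs, Ndufv, Uqcr and Atp5 series together with Sdha, Sdhb, Sdhc, Sdhd, Cyc1, Cycs and 6 cytochrome c oxidase genes (Cox5a, Cox5b, Cox6b1, Cox6c, Cox7b and Cox7c). Assembly factors named Ndufaf and pseudogenes were left out, and a probe set had to carry 1 gene symbol only. This gave 73 of the 20416 genes on the array, with 37 in complex I, 4 in complex II, 8 in complex III, 6 in complex IV and 17 in complex V, and cytochrome c (Cycs) by itself.

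C2C12 is a line of mouse myoblasts that fuse into multinucleated myotubes when serum is withdrawn. The cells grew in 10% fetal bovine serum and differentiated in 2% horse serum, and myotubes were taken from day 4 to day 7 of differentiation. In 3 cultures 100 nM insulin was present in the differentiation medium over 48 h, a regime meant, per the labels, to bring about insulin resistance, and 3 control cultures stayed without it. Medium was renewed every 24 h. The labels call the 3 cultures of a group biological replicates. They do not say whether these came from separate passages or days, so p-values measure the spread between these cultures. The series asked about genes at the meeting point of insulin signalling and mitochondria, and the comparison here asks whether the transcripts of the respiratory machinery differ between the groups.

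Complex I takes electrons from NADH and complex II from succinate, and both hand them to coenzyme Q. Complex III passes them on to cytochrome c, and complex IV to oxygen. Complexes I, III and IV pump protons while doing so, and complex V, the ATP synthase, lets the protons flow back and makes ATP. Most subunits are encoded in the nucleus, and those of complexes I, III, IV and V are joined with a few made inside the organelle from mitochondrial DNA. In muscle, this machinery covers most of the ATP demand at rest and in sustained work.

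Levels are log2 values of the authors' RMA normalization, in which a difference of 1 is a doubling, and a gene's level is the median of its probe sets. RMA brings the arrays onto 1 distribution, so each difference is relative to the other transcripts of the culture. Fewer myotubes and less RNA per myotube cannot be told apart in such bulk samples. Genes in the dimmest 30% were not tested, a limit that lay at 7.05. All 8 myotube markers examined were brighter than this, and their mean level was 12.80 to 12.97 on the controls and 12.57 to 12.62 on the insulin arrays. Adgre1 (listed as Emr1), Ptprc, Adipoq, Cdh5 and Lum, markers of macrophages, adipocytes, endothelium and fibroblasts, all lay under that limit. Of the 5 markers examined for each of these cell types, 1 for macrophages, 3 for adipocytes, 2 for endothelium and 4 for fibroblasts were bright enough to test. Those 4 fibroblast markers, Dcn, Col1a1, Pdgfra and Dpt, had mean levels of 11.61, 11.05, 8.45 and 8.36 on the controls. Dcn fell by 0.57, while the rest of the markers of these cell types did not pass.

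None of the 73 respiratory genes passed the test between insulin and control (limma, Benjamini-Hochberg adjusted p at or under 0.05 over all tested genes). Of all 14291 tested genes 2274 passed, or 15.9%, with 9.56% higher and 6.35% lower after insulin. Leaving out control 2 brought that total to 1237, and leaving out insulin 1, 2 or 3 brought it to 1267, 1046 or 1114. At an unadjusted p under 0.05 there were 5 respiratory genes (6.85%) beside 29.9% of all tested genes, and all 5 lay lower after insulin. Other settings of the analysis called from 0 to 6 of the 73 genes, as given in the closing section. The median difference of the 73 genes was -0.042 on the log2 scale, beside -0.0028 for all tested genes. Their median absolute difference was 0.061, beside 0.12 for all tested genes.

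The intervals show how small a difference in array signal the data left room for. How that signal scales with transcript amount at high levels, where most of these genes lay, was not tested. The limma 95% interval of a member had a median half-width of 0.15 on the log2 scale, which is 1.11-fold. For 56 of the 73 genes the whole interval lay within 1.2-fold of no difference, as it did for 28.5% of all tested genes. For 71 genes it lay within 1.5-fold, as it did for 87.9% of all tested genes, and Atp5j and Ndufa12 were the exceptions. Every interval reached past 1.1-fold on at least 1 side. The intervals are per gene and not adjusted for the number of genes.

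**Figure D1:**
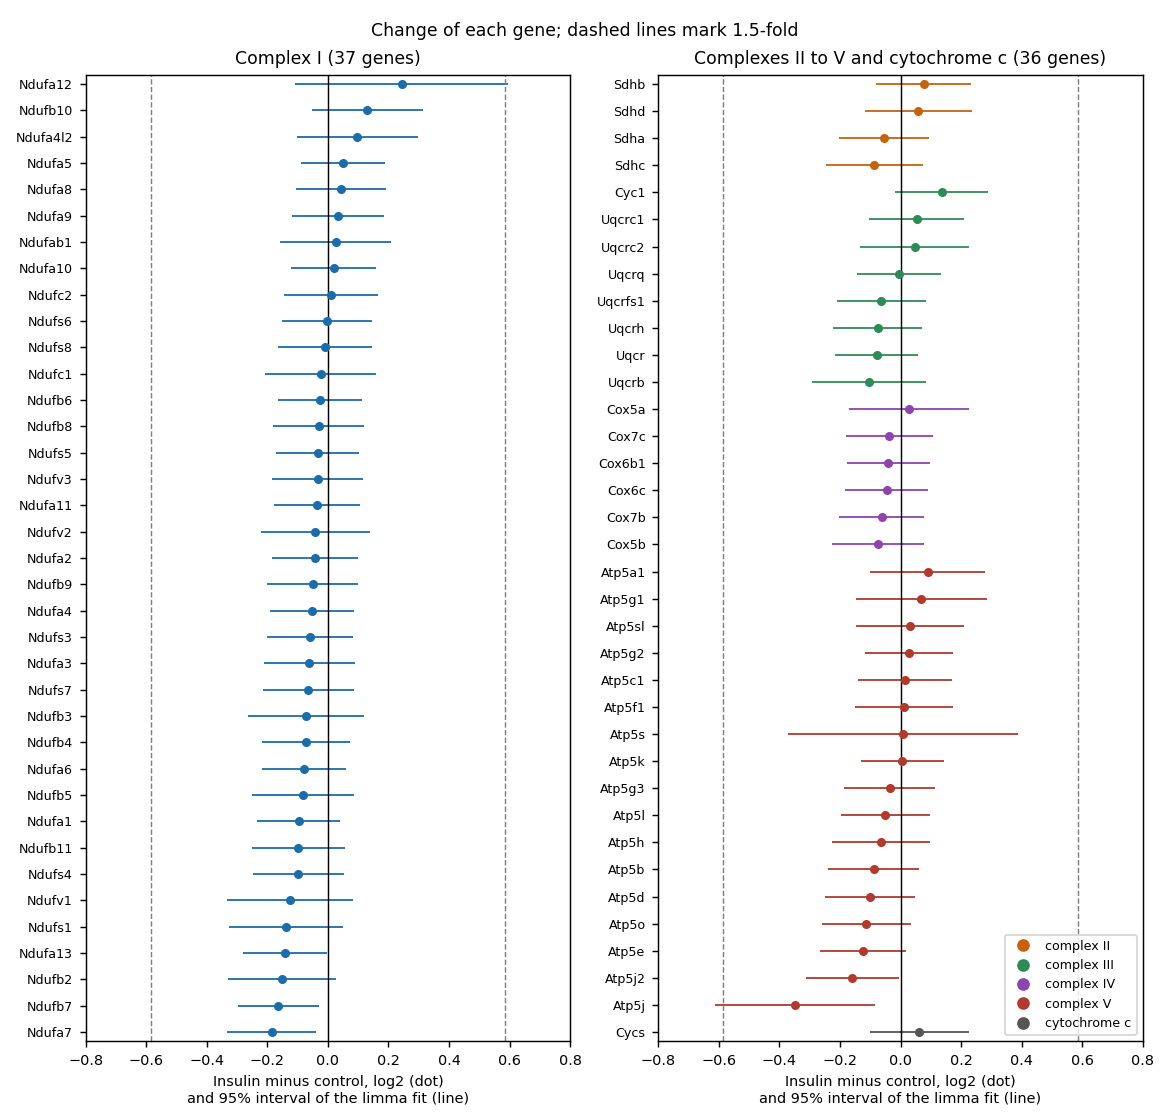
Insulin minus control on the log2 scale for each of the 73 genes (dots) with the 95% interval of the limma fit (lines), by complex, with dashed lines at 1.5-fold. The dots lie between -0.35 (Atp5j) and 0.24 (Ndufa12), and only the intervals of Atp5j and Ndufa12 reach past a dashed line.

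The respiratory transcripts were among the brightest on the arrays. Their median level stood at percentile 97.2 of the tested genes, 62 of them had a mean level of 12 or more, and the highest was Cox7c at 13.8. Bright genes passed the test less often in general: 13.4% passed at levels from 12 to under 13 and 5.69% at 13 or more. In those 2 ranges stood 31 and 31 respiratory genes, with none passing. At 13 or more the median absolute difference was 0.050 for the respiratory genes and 0.061 for all 334 tested genes of that range, and at 12 to under 13 it was 0.064 and 0.11. Signal over background was not judged here, as only summarized values were used.

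**Figure D2:**
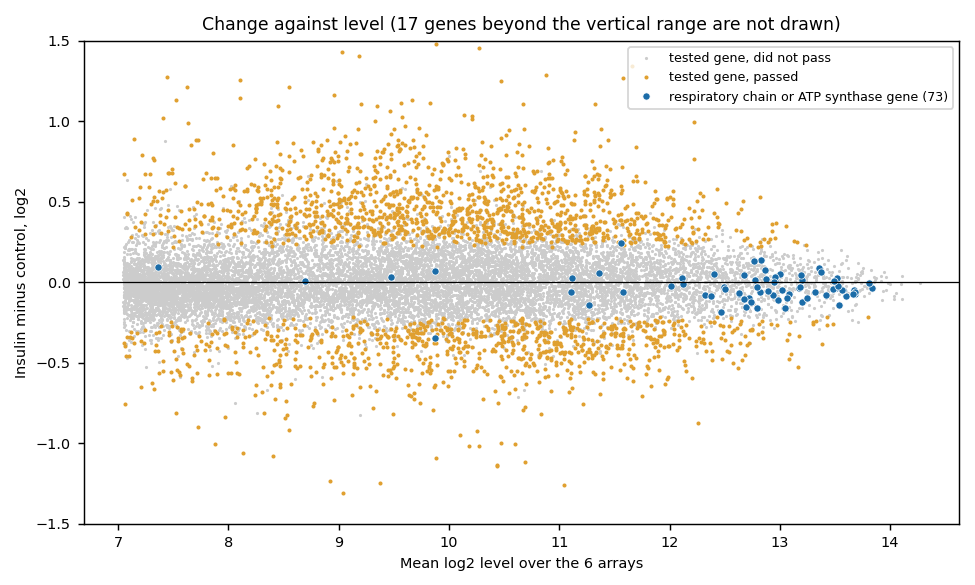
Difference between insulin and control against mean level over the 6 arrays, both on the log2 scale, for the 14291 tested genes, with those that passed in orange and the 73 respiratory genes in blue (17 genes beyond the vertical range are not drawn). The blue points sit mostly at the right, around 12 to 14, and none is among the orange ones.

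The levels repeated closely from culture to culture. The median SD over 3 arrays was 0.047 for the respiratory genes on the controls and 0.049 on the insulin arrays, beside 0.11 and 0.078 for all tested genes. Genes of like brightness were about as precise: the median SE was 0.062 for the respiratory genes and 0.063 for all tested genes at levels of 13 or more, and 0.067 and 0.070 at 12 to under 13. The mean deviation of the 73 genes from their own averages was -0.017, 0.022 and 0.047 on controls 1, 2 and 3 and -0.035, -0.010 and -0.0063 on insulin 1, 2 and 3. On this scale control 1 lay among the insulin arrays. The mean deviation of all tested genes was itself lowest on control 1, at -0.021, and ran from -0.0088 to 0.016 on the other 5 arrays. Relative to all tested genes the 73 genes stood at 0.0034, 0.021 and 0.056 on the controls and at -0.035, -0.026 and -0.019 on the insulin arrays, and the groups did not overlap. The separation from control 1 thus depended on that reference, which holds mostly dimmer genes. A reference of like brightness was not tried. Control 1 was the lowest control for 42 of the 73 genes, most clearly so for Ndufa12, Atp5s and Atp5j.

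**Figure D3:**
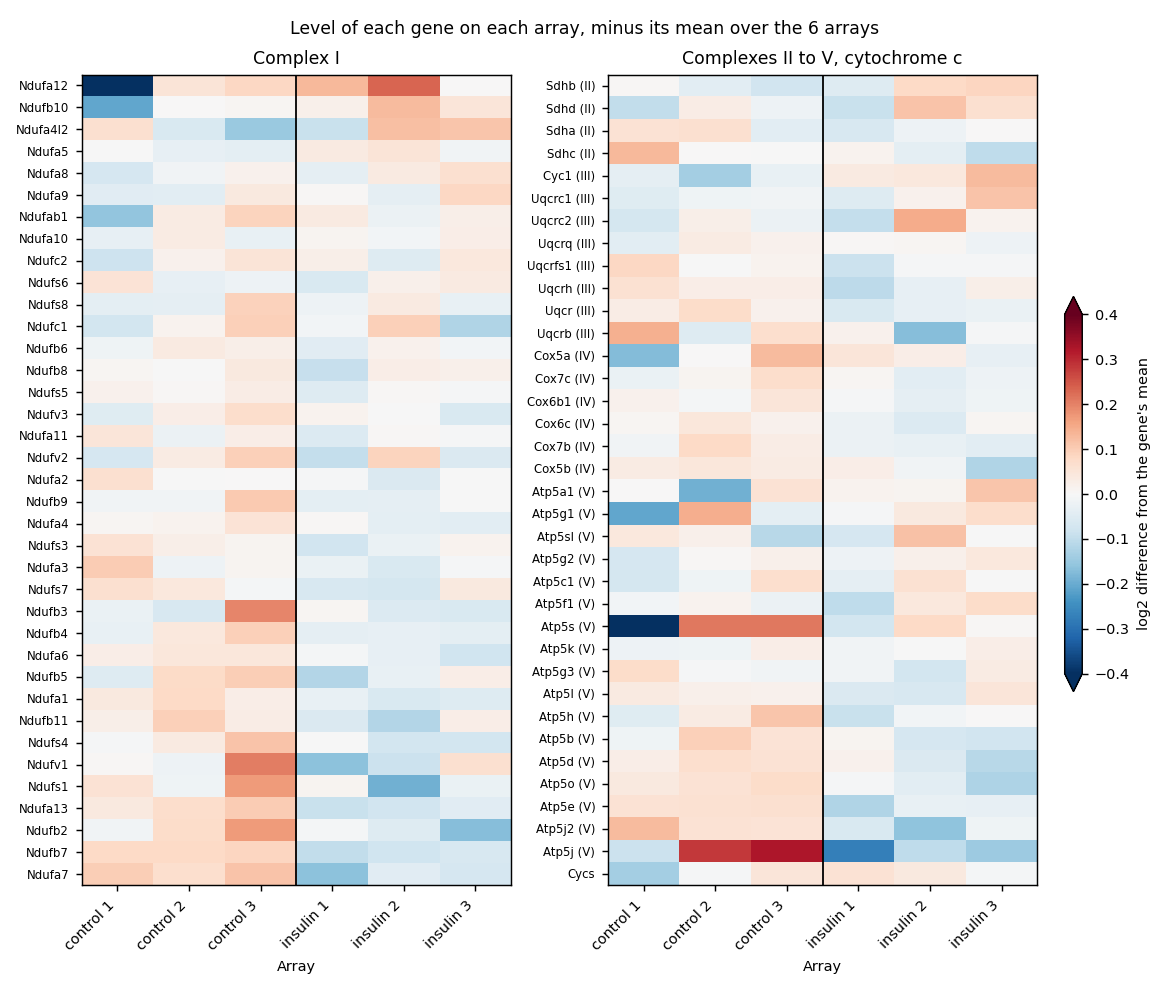
Level of each of the 73 genes on each array minus its mean over the 6 arrays, on the log2 scale, with complex in brackets for complexes II to V. Most cells are pale, with the darkest ones in control 1 (Ndufa12 and Atp5s) and in the row of Atp5j.

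Although no gene passed, the differences were not evenly spread around 0. After insulin 49 of the 73 genes (67.1%) lay lower on average, beside 50.6% of all tested genes. Most tested genes were dimmer than these, and the share below 0 among genes of like brightness was not examined. Genes read from the same arrays can move together, so this count is a description. The median of the 73 genes was -0.030 with a repeated quantile normalization and -0.063 with the arrays centred on their medians. Taking only the brightest probe set per gene gave -0.021, and leaving out control 3 gave -0.025. The insulin arrays lay wholly below the controls for 17 genes (23.3%) and wholly above them for Cyc1 and Ndufb10 (2.74%), where all tested genes gave 15.7% and 20.0%. Taken in both directions, 26.0% of the respiratory genes and 35.7% of all tested genes had groups that did not overlap. The 17 genes were 7 of 37 in complex I, 0 of 4 in complex II and 3 of 8 in complex III. Complex IV held 2 of 6 and complex V 5 of 17. The counts per complex are small, and 15.7% of all tested genes lay below the controls in this way.

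Complex I, the NADH dehydrogenase, had 28 genes below 0 and 9 above it, with a median of -0.043. Its 6 measured core subunits, which carry the flavin and iron-sulphur clusters, were all below 0, from -0.14 to -0.011. Ndufs1, the largest core subunit and holder of several iron-sulphur clusters, stood at 11.32, 11.25 and 11.44 on the controls and at 11.28, 11.08 and 11.24 on the insulin arrays. Its groups overlapped, and the difference was -0.14 ± 0.08 (SE, limma adjusted p = 0.308), with 14 of its 19 tested probe sets below 0. The difference of Ndufs1 was -0.089 without control 3, -0.078 without insulin 2, -0.072 with array quality weights, -0.037 with the brightest probe set and -0.0040 with the brighter ones. Ndufv1, the flavoprotein that accepts electrons from NADH, stood at 12.74, 12.72 and 12.94 on the controls and at 12.57, 12.65 and 12.80 after insulin. Those groups overlapped through insulin 3, and the difference was -0.13 ± 0.09 (adjusted p = 0.403). All 10 probe sets of Ndufv1 pointed down, but its difference was -0.055 without control 3 and -0.038 with the brighter probe sets.

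The accessory subunits surround this core and hold it together. Of 29 of them 21 lay below 0 and 8 above, with a median of -0.036. Ndufa7 and Ndufb7 came nearest to the threshold. Ndufa7 was 12.57, 12.53 and 12.58 on the controls and 12.30, 12.42 and 12.40 on the insulin arrays, with a gap between the groups. The difference was -0.19 ± 0.06 (SE, limma adjusted p = 0.0916), or 0.879-fold with a 95% interval of 0.793-fold to 0.974-fold, and all 4 probe sets pointed down. Ndufb7 was 12.87, 12.87 and 12.88 on the controls and 12.69, 12.71 and 12.73 after insulin. Its replicates were nearly identical within each group, yet limma, which shares the spread between genes, gave -0.16 ± 0.06 with an adjusted p of 0.101.

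Ndufa13, also known as GRIM-19, stood at 13.57, 13.60 and 13.64 on the controls and at 13.44, 13.46 and 13.49 after insulin. Its groups did not overlap, and the difference was -0.14 ± 0.06 (SE, adjusted p = 0.159), or -0.026 with the brightest probe set alone. In the other direction the largest estimate of the complex was that of Ndufa12, at 0.24 ± 0.15 (adjusted p = 0.335). It rested on control 1, which stood at 11.06 while the other 5 arrays ran from 11.56 to 11.79, and controls 2 and 3 lay inside the insulin range. Ndufb10 lay above all controls after insulin, with 12.56, 12.77 and 12.78 on the controls and 12.79, 12.90 and 12.82 on the insulin arrays, but its lead over controls 2 and 3 was small. Its difference was 0.13 ± 0.08 (adjusted p = 0.325).

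2 genes with complex I names play other roles. Ndufa4 is now known as a subunit of complex IV. It was among the brightest transcripts, at 13.57, 13.58 and 13.62 on the controls and 13.56, 13.52 and 13.52 after insulin, just below all controls, with a difference of -0.052 ± 0.060 (SE, adjusted p = 0.620). Ndufa4l2, its hypoxia-inducible relative, was the dimmest of the 73 genes at 7.21 to 7.43 on the controls and 7.27 to 7.48 on the insulin arrays. That is close to the filter at 7.05, and its difference was 0.097 ± 0.087 (adjusted p = 0.509).

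Complex II, the succinate dehydrogenase of the citric acid cycle, is the one complex encoded wholly in the nucleus. Its 4 genes split evenly around 0, with a median of 0.0026, and the groups overlapped for each. Sdha, the flavoprotein, differed by -0.054 ± 0.065 (SE), and Sdhb, the iron-sulphur protein, by 0.076 ± 0.068. Sdhc and Sdhd, the membrane anchors, differed by -0.086 ± 0.070 and 0.059 ± 0.077. The limma adjusted p of these genes ran from 0.462 to 0.662. Sdhb was 12.87, 12.83 and 12.79 on the controls and 12.82, 12.95 and 12.95 after insulin, so that insulin 1 lay among the controls.

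Complex III, the cytochrome bc1 complex, held 5 genes below 0 and 3 above it, with a median of -0.034. Cyc1, the cytochrome c1 that delivers electrons to cytochrome c, was 12.80, 12.70 and 12.80 on the controls and 12.87, 12.87 and 12.96 on the insulin arrays. It lay above all controls after insulin and all 7 of its probe sets pointed up, with a difference of 0.14 ± 0.07 (SE, limma adjusted p = 0.216). With the brightest probe set it was 0.071. The Rieske iron-sulphur protein Uqcrfs1, the other redox subunit encoded in the nucleus, lay below all controls by a hair, at 11.10 to 11.19 on the controls and 11.02 to 11.10 after insulin. Its difference was -0.063 ± 0.064 (adjusted p = 0.565). The core proteins Uqcrc1 and Uqcrc2 were at 0.053 ± 0.068 and 0.046 ± 0.078. The 4 small subunits Uqcr (Uqcr11), Uqcrb, Uqcrh and Uqcrq were all below 0, from -0.10 to -0.0048.

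Cytochrome c itself, the mobile carrier between complexes III and IV, was 13.23, 13.37 and 13.42 on the controls and 13.43, 13.41 and 13.36 after insulin. Control 1 was the low array, the groups overlapped, and the difference was 0.062 ± 0.071 (SE, adjusted p = 0.617).

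The 6 genes taken here for complex IV, the cytochrome c oxidase, are only a part of its nuclear-encoded genes. These 6 lay in the narrowest band of the 5 complexes, from -0.073 to 0.029 with a median of -0.043. Whether the band holds for the rest of the complex was not examined here. Cox5a stood at 11.94, 12.12 and 12.24 on the controls and at 12.16, 12.14 and 12.08 after insulin, inside the control range, and differed by 0.029 ± 0.086 (SE, adjusted p = 0.861). Cox5b was 13.72, 13.73 and 13.72 on the controls and 13.71, 13.67 and 13.56 after insulin. Its groups were separated by less than their own spread, and the difference was -0.073 ± 0.066 (adjusted p = 0.509). For Cox6b1, Cox6c, Cox7b and Cox7c the differences ran from -0.062 to -0.038.

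Complex V had 9 genes below 0 and 8 above it, with a median of -0.036 and the widest range, from -0.35 to 0.090. In the F1 part, where ATP is made, the catalytic subunit gene Atp5b was 13.58, 13.70 and 13.65 on the controls and 13.61, 13.53 and 13.52 after insulin, a difference of -0.089 ± 0.066 (SE, adjusted p = 0.416). Atp5a1, the alpha subunit, was 13.35, 13.16 and 13.41 on the controls and 13.37, 13.37 and 13.46 on the insulin arrays. Control 2 was the low array, the groups overlapped, and the difference was 0.090 ± 0.082 (adjusted p = 0.520). Without control 2 it was 0.016. Atp5d and Atp5e, small subunits of the central stalk, lay below all controls after insulin, at -0.10 ± 0.06 and -0.12 ± 0.06 (adjusted p = 0.345 and 0.229).

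The proton-carrying c-ring is made from 3 genes, Atp5g1, Atp5g2 and Atp5g3, which encode the same mature protein behind different import signals. Their differences were 0.068 ± 0.094, 0.028 ± 0.063 and -0.036 ± 0.065 (SE), with adjusted p from 0.680 to 0.808. For Atp5g1 only 2 probe sets carried its symbol alone, while 4 others also named Gm10039. Those 4 gave 0.041 to 0.12 and did not pass either. In the small membrane subunits, Atp5j2 lay below all controls after insulin, with 13.18, 13.11 and 13.11 on the controls against 12.99, 12.89 and 13.03. Its difference was -0.16 ± 0.07 (adjusted p = 0.158), but -0.0035 with the brightest probe set and -0.064 with the mean of probe sets.

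Atp5j, coupling factor 6 of the peripheral stalk that keeps F1 from turning, gave the largest difference of all 73 genes. It was 9.79, 10.16 and 10.20 on the controls and 9.60, 9.77 and 9.73 on the insulin arrays. All insulin values lay below the controls, but control 1 was only just above insulin 2. The difference was -0.35 ± 0.11 (SE, limma adjusted p = 0.0786), or 0.786-fold with a 95% interval of 0.655-fold to 0.943-fold. This gene had 1 probe set under its symbol alone, and brighter ones that also name another gene differed less, as given below. Without control 1 the difference was -0.48 and passed (adjusted p = 0.00945), while without the other 5 arrays in turn it did not.

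3 further probe sets named Atp5j together with another gene, LOC654426 in 2 cases and Gabpa in the third. These gave -0.038 ± 0.071, -0.019 ± 0.083 and -0.14 ± 0.12 (SE), with adjusted p from 0.566 to 0.921. The 2 shared with LOC654426 were far brighter than the probe set of Atp5j alone, at 13.97 to 14.02 and 13.49 to 13.68 on the controls. The one shared with Gabpa was dimmer, at 8.23 to 8.40. With all 3 included, the gene's difference was -0.18 (adjusted p = 0.212), a median that still draws on the probe set behind the -0.35. The other members of the stalk, Atp5f1, Atp5h and Atp5o, differed by 0.011, -0.064 and -0.11. Atp5s (Dmac2l) and Atp5sl (listed here with complex V by name, though neither is a subunit of the enzyme) differed by 0.0079 and 0.032.

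**Figure D4:**
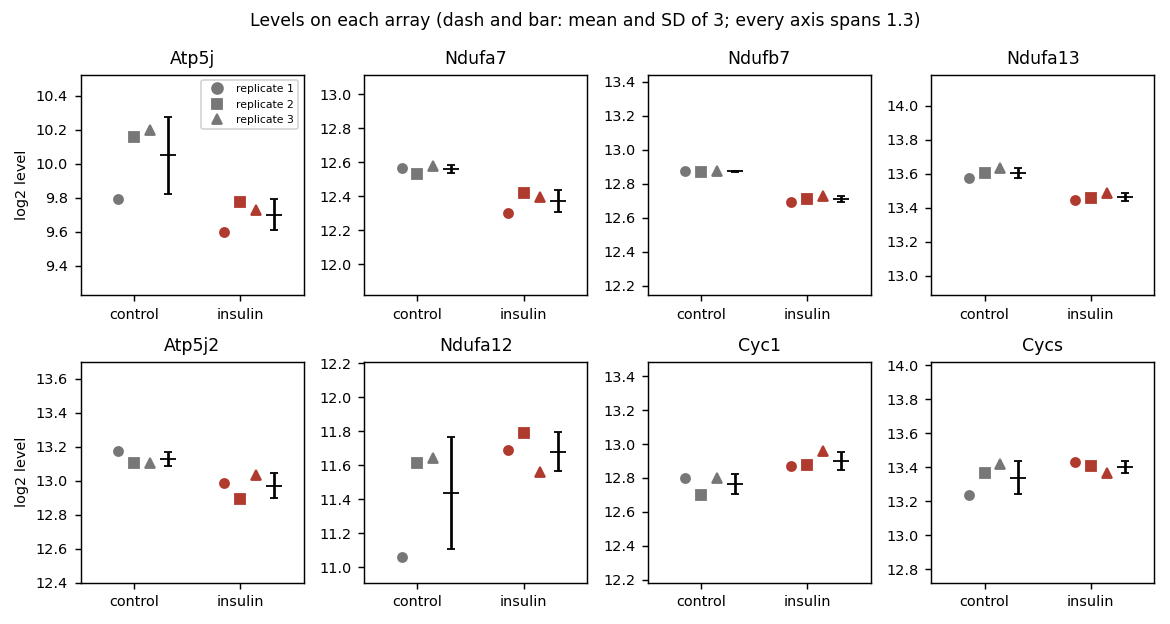
Log2 level on each array for 8 genes, in grey for controls and red for insulin, with replicate shown by marker and mean ± SD (n = 3) beside the points; every axis spans the same range. Atp5j, Ndufa7, Ndufb7, Ndufa13 and Atp5j2 lie lower and Cyc1 higher on all insulin arrays, Ndufa12 is set apart by control 1, and Cycs overlaps.

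Side by side, the complexes differed little in their medians, which were -0.043, 0.0026, -0.034, -0.043 and -0.036 for complexes I to V. These are descriptions of unequal numbers of genes. With Ndufa4 counted in complex IV and Ndufa4l2, Atp5s and Atp5sl left out, complex V had a median of -0.050 and complex IV of -0.046. The mean deviation of complex I was -0.017, 0.017 and 0.058 on the controls and -0.034, -0.013 and -0.011 on the insulin arrays, and for complex V it was -0.033, 0.050 and 0.056 against -0.053, -0.014 and -0.0060. In both, controls 2 and 3 were the high arrays. Relative to all tested genes, which are mostly dimmer, control 1 stood at 0.0039 in complex I, above insulin arrays at -0.034 to -0.023. In complex V it stood at -0.012, above insulin arrays at -0.053 to -0.018. Complex IV showed -0.026, 0.029 and 0.055 on the controls and 0.0049, -0.025 and -0.037 after insulin.

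Single probe sets were tested too. Of 409 tested probe sets of the 73 genes none passed (limma, adjusted over all 169103 tested probe sets), where 4.87% of all tested probe sets did, with 3.43% higher and 1.44% lower. At an unadjusted p under 0.05 stood 15 of them (3.67%), 4 higher and 11 lower, beside 21.8% of all. Of the 409 probe sets 247 lay below 0, with a median of -0.016, which is closer to 0 than the -0.042 of the genes. The share below 0 among all tested probe sets was not counted. The lowest adjusted p was 0.0824, for a probe set of Ndufb7. Of 69 genes with at least 2 tested probe sets, 28 had all of them on the same side of 0, Ndufv1, Ndufb7, Ndufa7, Ndufa13, Cyc1 and Cycs among them. Some of the 28, such as Atp5h, had only 2 probe sets. How often this held among all tested genes was not counted.

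The subunits made from mitochondrial DNA could be set beside those from the nucleus. The array named 7 of their genes, ND1, ND2, ND4L, ND6, COX1, COX3 and ATP6, with 1 or 2 probe sets each. None passed, none gave an unadjusted p under 0.05, and the differences ran from -0.070 for ATP6 to 0.086 for ND6, with a median of -0.042. COX1, the catalytic subunit of complex IV, was 13.52, 13.52 and 13.55 on the controls and 13.53, 13.48 and 13.44 after insulin, with overlapping groups.

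Genes around the chain were read from lists, which also hold the 7 mitochondrial genes just described. Of 80 tested genes in 11 lists of assembly factors, coenzyme Q enzymes, carriers, uncoupling proteins, mitochondrial genes and regulators, 9 rose and 2 fell. That is 13.8%, near the 15.9% of all tested genes (9.56% higher and 6.35% lower). Leaving out control 2 left 4 rises, leaving out insulin 1 left 3, and leaving out insulin 2 or insulin 3 left 2 each. The falls came to 1 when control 2, control 3 or any 1 of the insulin arrays was left out. Which of the genes named below still passed in those fits is not given here.

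Assembly factors rose in 2 of 10 tested cases for complex I, 2 of 11 for complex IV and 1 of 4 for the ATP synthase, where the inhibitor Atpif1 was counted too. Of all tested genes 9.56% rose, and these lists are small. Foxred1, needed to build complex I, went from 8.97, 8.96 and 9.24 on the controls to 9.55, 9.60 and 9.70 on the insulin arrays, a 1.48-fold rise (0.56 ± 0.09 SE on the log2 scale, limma adjusted p = 0.0064). Ndufaf4, another complex I factor, rose by 0.39, Cox10, which makes the heme A precursor for complex IV, by 0.30, and Cox18, which inserts a complex IV subunit into the membrane, by 0.38. Atpaf1, a chaperone of F1 assembly, rose by 0.35, while Atpaf2 (0.18) and the ATP synthase inhibitor Atpif1 (-0.054) did not pass. None of the 2 tested factors of complex II and the 3 of complex III passed.

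Coenzyme Q links the dehydrogenases to complex III. Of 12 tested genes of its synthesis 2 rose, where 9.56% of all tested genes did. Pdss1, which builds its isoprene tail, rose by 0.81 ± 0.18 (SE, limma adjusted p = 0.0217) and Coq7, a hydroxylase of its ring, by 0.31 ± 0.07 (0.016). Pdss1 was 8.51, 9.24 and 9.22 on the controls and 9.85, 9.83 and 9.71 after insulin, with control 1 the lowest array. Gpd2, the glycerol phosphate dehydrogenase that feeds electrons from the cytosol into coenzyme Q, rose from 10.90, 11.00 and 10.93 to 11.47, 11.51 and 11.54. This was 1.48-fold (0.56 ± 0.06 SE, adjusted p = 0.00175), and the 2 groups lay far apart. The other enzymes that reduce coenzyme Q did not pass, with Dhodh at 0.23, Prodh at 0.23, Sqrdl (Sqor) at 0.15, Etfdh at 0.0079 and Chdh at -0.13.

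Of the carriers and uncouplers, Ucp2, an inner-membrane carrier of the uncoupling protein family, fell by 0.50 ± 0.09 on the log2 scale (SE, adjusted p = 0.0101). It was 11.13, 10.83 and 10.89 on the controls and 10.46, 10.52 and 10.37 on the insulin arrays, with no overlap. The ADP/ATP exchangers Slc25a4 and Slc25a5 (-0.053 and -0.040), the phosphate carrier Slc25a3 (-0.19) and the 3 porins (-0.027 to 0.089) did not pass. Among 16 tested regulators 2 passed, beside 15.9% of all tested genes. Gabpb2, a partner of the ETS factor GABPA, rose by 0.37, and Esrrg, an oestrogen-related receptor that drives oxidative genes in muscle, fell by 0.38. Esrrg was 7.18 to 7.48 on the controls and 6.85 to 7.07 after insulin, so its mean was above the limit of 7.05 on the controls only. It reached the test through the group where it is high, and its fall is no support for a change of the list. Nrf1 (0.21), Gabpa (0.039), Tfam (0.21), Yy1 (0.040) and Esrra (-0.029) did not pass, and Ppargc1a lay under the filter.

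**Figure D5:**
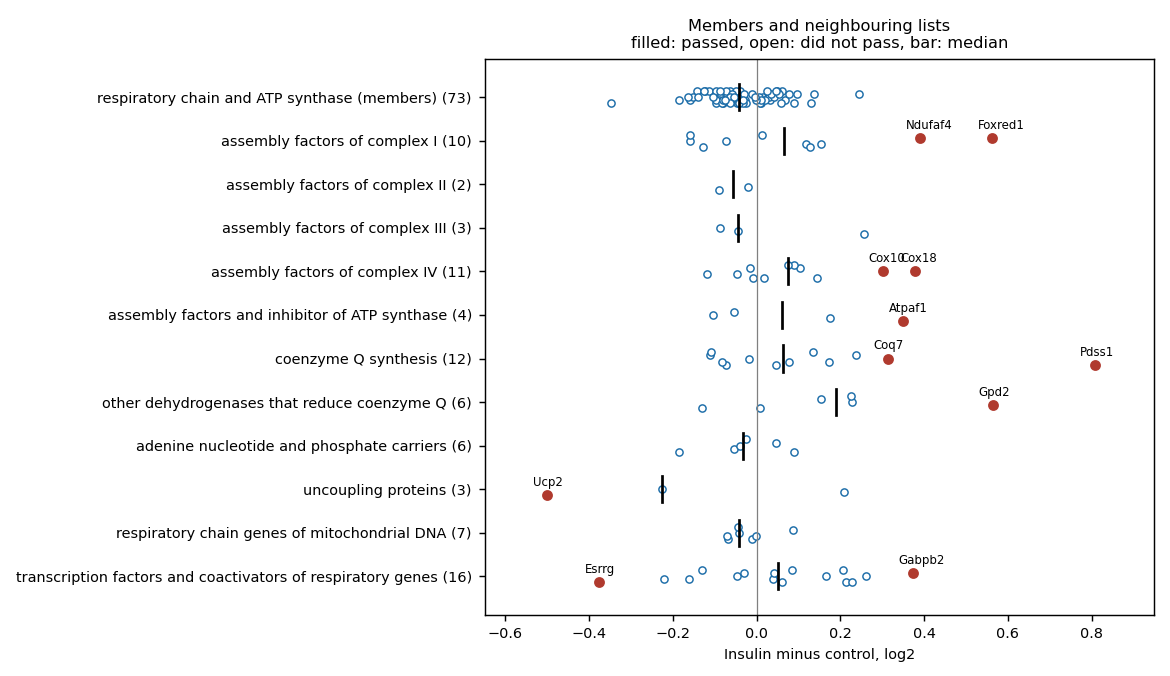
Insulin minus control on the log2 scale for the 73 genes (top row) and 11 neighbouring lists, with the number of tested genes in brackets, genes that passed filled and named, others open, and a bar at each median. No gene of the top row is filled, and 11 genes of the lists are, 9 to the right of 0 and 2 to the left.

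The cultures differed in other respects on the same arrays. Of 6 measured markers of cycling cells all 6 rose, where 9.56% of all tested genes did, and their mean level was 10.79 to 10.82 on the controls and 11.42 to 11.46 on the insulin arrays. Of the 8 myotube markers Myog, Ckm and Actn2 fell, where 6.35% of all tested genes did, and the other 5 did not pass. The part of these shifts in the values of the respiratory genes was not tested.

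Promoters of the 73 genes were examined for motifs of factors known to act on respiratory genes. RefSeq windows of 250 bases before to 50 after the start site (GRCm38.p6) were matched for 62 genes, in 68 windows, and both strands were searched. The NRF1 motif, GCGCA and GCGC parted by any 1 base, was in 25.0% of these windows and in 4.60% of all 32851 windows of the table. The ETS motif CCGGAAG, bound by GABPA, was in 20.6% against 8.86%, the YY1 motif ATGGCGG in 19.1% against 4.05%, the half-site AAGGTCA of ERR and other nuclear receptors in 11.8% against 4.72%, and the E-box CACGTG in 13.2% against 7.15%. The windows of the 73 genes were richer in G and C (median 59%, against 52.7%), and no matches of different motifs overlapped in them. A match is a run of letters and does not show binding.

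The differences after insulin were also read by motif. The median was -0.018 for the 16 genes with the NRF1 motif and -0.056 for the rest of the 62, and -0.055 and -0.037 with and without the ETS motif (14 genes with it). For YY1 the medians were -0.082 (11 genes) and -0.038, for ERR -0.043 (8 genes) and -0.041, and for the E-box -0.036 (7 genes) and -0.042. The 150 bases before the start site are shown for the 3 genes with the lowest adjusted p and for Sdhd, whose promoter carries the NRF1 and ETS motifs close together. They read 5′ to 3′ on the gene's strand, with motif matches in capitals on either strand.

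Atp5j, chr16:84834977-84835126, minus strand, with a YY1 and an ETS match.
Atp5j: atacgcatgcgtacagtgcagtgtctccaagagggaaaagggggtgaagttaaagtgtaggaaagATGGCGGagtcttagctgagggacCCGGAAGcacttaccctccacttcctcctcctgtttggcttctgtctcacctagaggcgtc
Ndufa7, chr17:33824422-33824571, plus strand, with a YY1 match and an E-box.
Ndufa7: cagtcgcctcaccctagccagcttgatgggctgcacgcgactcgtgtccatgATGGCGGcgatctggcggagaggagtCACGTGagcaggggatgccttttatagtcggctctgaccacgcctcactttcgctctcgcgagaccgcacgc
Ndufb7, chr8:83566608-83566757, plus strand, with an ETS match.
Ndufb7: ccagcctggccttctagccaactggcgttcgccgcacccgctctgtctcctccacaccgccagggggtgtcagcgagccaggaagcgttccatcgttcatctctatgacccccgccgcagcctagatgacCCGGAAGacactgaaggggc
Sdhd, chr9:50603850-50603999, minus strand, with an NRF1 and an ETS match.
Sdhd: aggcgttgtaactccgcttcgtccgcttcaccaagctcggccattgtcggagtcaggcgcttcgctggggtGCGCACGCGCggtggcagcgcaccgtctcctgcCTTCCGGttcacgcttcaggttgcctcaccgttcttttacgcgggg

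Seen from the Atp5j start site used for the sequence above, Atp5j and Gabpa start back to back. The sequence fills the space between them and reaches just past the start of Gabpa. The start site of Gabpa, on the plus strand, was 148 bases from this start site of Atp5j, and the other RefSeq start of Atp5j, which has no match to these motifs in its window, was 501 bases from that of Gabpa. Gabpa, measured by 13 probe sets, was 10.45, 10.40 and 10.28 on the controls and 10.42, 10.39 and 10.44 after insulin. Its groups overlapped, at a difference of 0.039 ± 0.069 (SE, limma adjusted p = 0.754), beside the -0.35 of Atp5j.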

How the data were processed

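RNA of 3 insulin-treated and 3 untreated C2C12 myotube cultures was measured on 1 array each. Per the labels' protocols, 25 ng of total RNA was amplified before biotin labelling, so levels are those of amplified RNA. The authors deposited RMA values, per the submitters' processing notes, which were taken as log2 from their range of 3.15 to 14.6. The sources used here state neither the version nor the log base. Of 241576 probe sets, 212097 had exactly 1 gene symbol in GEO's platform annotation, 4475 had several and 25004 none. A gene's value was the median of its 1-symbol probe sets. Genes under the 30th percentile of mean level (7.05) were left out.

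Insulin minus control was fitted across 14291 genes with limma 3.58.1 in R 4.3.3 (lmFit, eBayes, two-sided, no covariate), with Benjamini-Hochberg adjustment at 0.05. Probe sets were fitted alike. The script was tested on simulated data. No library depth exists for arrays, and their number limits the precision.

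The members, lists and tests were chosen with earlier results of these data known. The rule for named genes took every member past the threshold, of which there were none, and a fixed set of catalytic and c-ring genes. Ndufa7, Ndufa12, Ndufa13, Ndufb7, Ndufb10, Atp5d, Atp5e, Atp5j and Atp5j2 were added after their values were seen. Genes of the neighbouring lists were named where they passed, where the list had 8 or fewer genes, or as examples chosen after their values were seen. Alternatives covered normalization, filters, the variance model, the probe set summary and leaving out each array. Set tests were not run.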

Additional observations from a re-analysis of the deposited data

How the results depend on the processing

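Under 12 of 17 alternatives, as in the report's setting, none of the 73 genes passed. With the replicate block 1 gene fell (Atp5j, adjusted p = 0.0422). With an intensity trend and robust prior 5 fell (Atp5e, Atp5j2, Ndufa7, Ndufa13 and Ndufb7), at differences of -0.19 to -0.12. With array quality weights 4 fell (Atp5j, Ndufa7, Ndufa13 and Ndufb7) and 2 rose (Atp5a1 by 0.21 and Cyc1 by 0.19), while 5007 genes passed in all. With the mean of probe sets 2 fell (Atp5j and Ndufb7) of 3436 genes passing, and the median of complex III was -0.068. Leaving out each array in turn gave 0 rises and 0 to 1 falls, 1046 to 2446 genes passing in all, and medians of -0.047 to -0.025 for the 73 genes, -0.057 to -0.026 for complex I, -0.020 to 0.041 for complex II, -0.036 to -0.022 for complex III, -0.057 to -0.031 for complex IV and -0.061 to -0.024 for complex V. Neighbouring genes then counted 2 to 9 rises and 1 to 2 falls. They gave 16 rises and 6 falls with array quality weights, 1 fall with no filter and 1 with the filter at the 50th percentile, and 0 falls with the brightest probe set. The cause was not tested, except that leaving out an array leaves fewer samples. Including shared probe sets, or taking members by present symbol (3 more genes, Uqcr10, Atp5mpl and Atp5md by their present names), both chosen after seeing the data, gave no calls. Deviations from the group means correlated at 0.025, 0.19 and -0.00036 between the same-numbered cultures 1, 2 and 3. Between differently numbered cultures the correlations ran from -0.10 to 0.069. These values do not settle whether equal replicate numbers mark pairs. The replicate block changed no other call among the 73 genes and gave 1970 genes passing in all. Of 25 members followed through all settings, 7 had another sign in at least 1 of them, in 12 of 423 values, none of them past the threshold.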

Other observations

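A few probe sets within the respiratory genes swung far more between arrays than the rest of their gene. Of 417 member probe sets 9, in 7 genes, spanned 1 or more on the log2 scale over the 6 arrays (2.16%, beside 15.2% of all probe sets). The widest was 1 of the 11 probe sets of Atp5b, at 12.78, 10.26 and 13.82 on the controls and 10.93, 9.74 and 11.90 on the insulin arrays. A probe set of Ndufb2 ran from 10.62 to 13.04 and 1 of Ndufs1 from 9.13 to 11.44. In these 3 probe sets control 3 was the highest array, and control 2 and insulin 2 were among the lowest 3. None passed the test (limma adjusted p from 0.440 to 0.508). Such probe sets can still set a gene's median, as for Ndufs1 on control 3 and for Ndufa12 on control 2 and insulin 3.

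Of 26 probe sets that named a respiratory gene beside another gene, in 11 genes, 24 were bright enough to be tested. None passed (limma), none had an unadjusted p under 0.05, and their differences ran from -0.14 for one shared by Atp5j and Gabpa to 0.18 for one shared by Cox7c and Gm10012.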
